A study of Mus musculus with 18 samples.

Results

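The genes described here are 8 clade B serpins, Serpinb1a, Serpinb2, Serpinb5, Serpinb6a, Serpinb6b, Serpinb8, Serpinb9 and Serpinb9b, of the 55421 genes in the deposited tables. They were selected by gene name from genes whose level was already known from these same libraries to move with the day of culture, so their levels and fold changes are given as descriptions, with no test. PolyA RNA was sequenced from proximal tubules of mouse kidney on the day of isolation (day 0) and from the primary cultures grown from them on days 1, 2, 4, 7 and 14, with 3 libraries (replicates A, B and C) per day. Every group came from female wild type mice aged 6 weeks, with the strain given as C57BL/6 or C57BL/6J. None received a treatment, so the groups differ by time in culture. The tubules were freed from kidney with collagenase, enriched on Percoll and kept on tissue culture plastic without passage. They were not sorted, so fewer cells of a type and less RNA per cell cannot be told apart. The replicates are labelled biological, yet whether each was a separate animal or culture is not stated, and the spread between them may be technical.

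Serpins are protease inhibitors that work once. The protease cuts an exposed loop of the serpin, the reactive centre loop, and is trapped and distorted as that loop folds into the body of the inhibitor. Clade B holds the ovalbumin-like serpins, which lack a classical secretion signal and mostly act in the cytosol and nucleus, where they protect cells from their own or from incoming proteases. In the mouse the clade has expanded into families of closely related genes on chromosomes 1 and 13. Among the members, Serpinb9 inhibits granzyme B, Serpinb6b is a granzyme A inhibitor and Serpinb9b a granzyme M inhibitor of the mouse. Serpinb1a is a mouse counterpart of the leukocyte elastase inhibitor, and Serpinb6a is the mouse ortholog of human SERPINB6, an inhibitor of trypsin-like proteases and cathepsin G. Serpinb2, or plasminogen activator inhibitor type 2, inhibits urokinase. Serpinb5, or maspin, is an epithelial serpin that is not known to trap proteases. Human SERPINB8 inhibits furin.

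Serpinb5, Serpinb2 and Serpinb8 lie in one cluster on chromosome 1, and the 5 other members lie in a second cluster on chromosome 13. In GENCODE vM21 (GRCm38), the chromosome 1 cluster holds 11 protein-coding clade B genes over 749 kb and the chromosome 13 cluster holds 16 over 1161 kb. The 250 bases before an annotated start are shown for 6 members, to set the letters near the starts of members of both clusters side by side. The sequences are from RefSeq (GRCm38.p6), which gave a start region for 7 of the 8 members, and are written 5′ to 3′ on the gene's strand. Capitals mark a match to the AP-1 motif TGANTCA, to the interferon-stimulated response element (ISRE) motif, GAAA and GAAA with 2 free bases between them, on either strand, or to the TATA box TATAAA. Serpinb2 is at chr1:107511173-107511422 (plus), Serpinb5 at chr1:106860925-106861174 (plus), Serpinb8 at chr1:107589756-107590005 (plus), Serpinb6a at chr13:34002795-34003044 (minus), Serpinb9 at chr13:33004291-33004540 (plus) and Serpinb9b at chr13:33027164-33027413 (plus).
Serpinb2: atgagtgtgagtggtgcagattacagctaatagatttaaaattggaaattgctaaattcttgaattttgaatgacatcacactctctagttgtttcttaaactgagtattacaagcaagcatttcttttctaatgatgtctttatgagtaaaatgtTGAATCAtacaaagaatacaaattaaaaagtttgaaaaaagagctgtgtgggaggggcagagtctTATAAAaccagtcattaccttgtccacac
Serpinb5: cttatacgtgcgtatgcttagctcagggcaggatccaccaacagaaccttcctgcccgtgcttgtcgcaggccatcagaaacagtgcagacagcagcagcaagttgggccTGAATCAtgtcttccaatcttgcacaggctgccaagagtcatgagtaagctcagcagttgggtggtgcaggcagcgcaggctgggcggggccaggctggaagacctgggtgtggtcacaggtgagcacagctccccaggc
Serpinb8: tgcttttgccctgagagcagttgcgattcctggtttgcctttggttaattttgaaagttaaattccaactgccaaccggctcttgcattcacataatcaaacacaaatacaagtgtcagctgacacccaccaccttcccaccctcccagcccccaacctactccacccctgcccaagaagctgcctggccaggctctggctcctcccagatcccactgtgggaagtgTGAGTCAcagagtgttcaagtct
Serpinb6a: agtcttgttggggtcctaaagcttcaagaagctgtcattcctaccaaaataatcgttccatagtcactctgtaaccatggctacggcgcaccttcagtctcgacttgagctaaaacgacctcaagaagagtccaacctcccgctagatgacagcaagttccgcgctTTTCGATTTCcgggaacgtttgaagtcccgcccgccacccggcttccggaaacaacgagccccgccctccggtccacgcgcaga
Serpinb9: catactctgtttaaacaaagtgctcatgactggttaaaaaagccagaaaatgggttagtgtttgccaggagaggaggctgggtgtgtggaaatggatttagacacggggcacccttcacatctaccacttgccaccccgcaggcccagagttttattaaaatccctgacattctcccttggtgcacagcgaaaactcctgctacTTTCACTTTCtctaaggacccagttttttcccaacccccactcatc
Serpinb9b: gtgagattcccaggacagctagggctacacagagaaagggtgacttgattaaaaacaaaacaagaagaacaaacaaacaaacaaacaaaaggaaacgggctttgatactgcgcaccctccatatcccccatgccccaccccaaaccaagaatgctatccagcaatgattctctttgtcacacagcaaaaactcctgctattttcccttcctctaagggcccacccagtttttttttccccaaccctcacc

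The AP-1 motif, searched as TGANTCA with any middle base, was present before all 3 chromosome 1 members. It began 94 bases upstream of the start in Serpinb2, 140 in Serpinb5 and 23 in Serpinb8. The middle base was A in Serpinb2 and Serpinb5 and G in Serpinb8. None of the chromosome 13 members with a start region had a match. With the middle base free, the motif was found in 6.749% of the 32851 promoter windows of the same length. Windows were not counted by middle base. Serpinb2 also had a TATA box beginning 29 bases upstream of its start, a motif found in 12.368% of windows. These distances for Serpinb2 are from the upstream one of its 2 annotated starts. From the other start, the same AP-1 motif began 181 bases and the TATA box 116 bases upstream. The ISRE motif was present before Serpinb9, beginning 46 bases upstream, and before the upstream one of 2 annotated starts of Serpinb6a, beginning 84 bases upstream, and in 2.977% of windows. The windows of Serpinb6b and Serpinb9b held none of the 6 motifs searched, which also included CRE (TGACGTCA, 1.546% of windows), NF-kB (GGGA and TTCC with 2 free bases between them, 1.208%) and HNF1 (GTTAAT and ATT with 1 free base between them, 0.371%), all read on both strands. The motifs searched do not overlap in these windows. The Serpinb9 and Serpinb9b windows resembled each other over most of their length, with 152 of 223 aligned bases identical (68.2%), against 63.8% or less for the best alignments of the other 14 pairs among Serpinb2, Serpinb5, Serpinb6b, Serpinb8, Serpinb9 and Serpinb9b. These matches describe letters and show neither binding nor a cause of the courses.

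Estimated counts per library summed to between 23799559 and 37579097. Of all genes, 18754 passed the filter on low counts, with all 8 members among them. Levels are counts-per-million (CPM, TMM-scaled), summarised for each day as mean ± SD (n = 3 libraries). The tubule label held on day 0, but the markers were then lost: 8 proximal tubule markers summed to 14.7 to 26.4 CPM on day 14, against 18012 to 20955 CPM on day 0. Markers of other cells were also present on day 0, when 8 collecting duct markers summed to 1067 to 1562 CPM. In the same way 8 endothelial markers summed to 162 to 205 CPM on day 0 and 176 to 298 CPM on day 1. Day 7 replicate C stood apart from replicates A and B: its log2 CPM correlated more closely with day 4 (mean r of 0.975, against 0.952 and 0.953 for A and B) than with day 14 (0.948, against 0.981 and 0.982). Its collecting duct markers summed to 31.5 CPM, against 177 and 186 CPM in A and B. That gap rested mainly on Scnn1b (7.65 to 65.7 CPM over the day 7 libraries), Scnn1g (6.08 to 71.9 CPM) and Fxyd4 (3.75 to 33.4 CPM). Aqp2 (1.59 to 4.00 CPM) and Aqp3 (1.99 to 3.93 CPM) were low in every day 7 library, against day 0 means of 363 and 240 CPM. The part of replicate C's difference from A and B in the member values was not tested. Day 7 values are given with and without replicate C.

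Serpinb9, the inhibitor of granzyme B, was present at isolation and several times higher in the later cultures, where it became the most abundant member per length (TPM) by day 14. It had 46.0, 30.5 and 69.1 CPM on day 0, 103, 75.2 and 105 CPM on day 1, and 127, 169 and 141 CPM on day 2. The values were 288, 295 and 295 CPM on day 4, 454, 467 and 138 CPM on day 7, and 311, 377 and 339 CPM on day 14. Its libraries did not overlap those of day 0 on any later day. Day 7 replicate C was far below the other libraries of that day and lay within the day 2 range. Day 14 averaged 342 ± 33.0 CPM and day 0 averaged 48.5 ± 19.4 CPM, a log2 fold change of 2.82 ± 0.37 (SE). Between day 14 and day 4 (293 ± 4.16 CPM) the log2 fold change was 0.23 ± 0.34, within its own error although the libraries did not overlap. Without day 7 replicate C the day 7 mean was 460 CPM in place of 353 CPM.

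Serpinb9b, the granzyme M inhibitor, was close to absent from the isolated tubules and was among the 4 most abundant members in TPM from day 4 on. Day 0 held 1 estimated count in its 3 libraries together. Serpinb9b had 17.9, 13.1 and 15.2 CPM on day 1, 42.8, 63.3 and 38.9 CPM on day 2, and 228, 244 and 222 CPM on day 4. It had 140, 176 and 70.0 CPM on day 7 and 139, 153 and 120 CPM on day 14. Every later library lay above every day 0 library, and the day 4 libraries lay above all others. The ratio of day 4 to day 0, set against that single count, was 15814, with an exact 95% interval of 2838 to 624664 that covers counting error only. Day 14 averaged 137 ± 16.4 CPM and day 4 averaged 231 ± 11.4 CPM, a log2 fold change of -0.75 ± 0.25. Without replicate C, the day 7 mean was 158 CPM in place of 129 CPM.

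Serpinb6b, the granzyme A inhibitor, had a higher mean at each sampled day and was highest at the end. The libraries had 7.48, 6.91 and 9.44 CPM on day 0, 11.2, 13.1 and 13.1 CPM on day 1, and 15.9, 19.8 and 15.1 CPM on day 2. They had 29.3, 23.1 and 32.4 CPM on day 4, 98.2, 101 and 33.4 CPM on day 7, and 90.4, 109 and 104 CPM on day 14. Each day's libraries lay above all day 0 libraries, and replicate C of day 7 lay just above the day 4 libraries while replicates A and B lay within the day 14 range. The log2 fold change against day 0 (7.95 ± 1.33 CPM) was 0.65 ± 0.31 on day 1 and 3.68 ± 0.32 on day 14 (101 ± 9.74 CPM). Day 14 exceeded day 4 (28.3 ± 4.73 CPM) by a log2 fold change of 1.84 ± 0.29. Leaving out replicate C moved the day 7 mean to 99.8 CPM, against 77.7 CPM with it.

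Serpinb6a, the inhibitor of trypsin-like proteases, was high within a day, had its highest mean on day 2 and then declined slowly. It had 26.0, 27.2 and 31.6 CPM on day 0, 159, 144 and 182 CPM on day 1, and 189, 162 and 199 CPM on day 2. It had 138, 131 and 134 CPM on day 4, 93.7, 84.7 and 116 CPM on day 7, and 70.4, 73.4 and 69.0 CPM on day 14. All culture libraries lay above all day 0 libraries, and the day 14 libraries lay below all those of days 1 to 7. The log2 fold change against day 0 (28.3 ± 2.97 CPM) was 2.52 ± 0.12 on day 1 (162 ± 19.1 CPM) and 1.33 ± 0.12 on day 14 (70.9 ± 2.24 CPM). Day 14 was lower than day 4 by a log2 fold change of -0.92 ± 0.12. On the opposite strand the gene overlaps Nqo2, Ripk1 and 1110046J04Rik. Of its 75-base stretches, 22.0% also occur in transcripts of other genes, the highest share among the members. Nqo2 holds 690 of these 1297 stretches, and reads may be shared there.

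Serpinb1a, the elastase inhibitor, ran against the other chromosome 13 members. It had 36.5, 35.8 and 39.9 CPM on day 0, 7.82, 11.2 and 9.39 CPM on day 1, and 7.39, 5.82 and 6.80 CPM on day 2. Its values were 1.52, 0.617 and 1.02 CPM on day 4, 0.571, 0.177 and 0.825 CPM on day 7, and 0.155, 0.178 and 0.163 CPM on day 14, when each library held 5 counts. No later library reached the day 0 range. The log2 fold change against day 0 (37.4 ± 2.21 CPM) was -1.98 ± 0.28 on day 1 (9.47 ± 1.70 CPM) and -7.79 ± 0.42 on day 14 (0.165 ± 0.0116 CPM). Summed proximal tubule markers were also lower in each library of day 1 (3689 to 7401 CPM) than on day 0, and the part of this loss in the Serpinb1a values was not tested.

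Serpinb2, the urokinase inhibitor, was seen mainly in the first days. It had 0 counts in all day 0 libraries, 9.87, 7.49 and 7.07 CPM on day 1, and 25.8, 29.7 and 28.2 CPM on day 2. It had 3.29, 3.15 and 3.21 CPM on day 4, 0.210, 0.177 and 8.14 CPM on day 7, and 0.218, 0.178 and 0.293 CPM on day 14. The day 2 libraries lay above all others, and day 7 replicate C lay in the day 1 range while replicate A lay inside and replicate B just below the day 14 range. Against a floor of 3 counts over the 3 day 0 libraries, Serpinb2 was at least 186-fold higher on day 1, at least 636-fold higher on day 2 and at least 5.23-fold higher on day 14. The day 7 bound rested on replicate C, being at least 64.8-fold with it and at least 4.42-fold without it. Day 14 was lower than day 4 by a log2 fold change of -3.78 ± 1.11. Serpinb2 overlaps Serpinb10 on the same strand and shares 211 of its 2345 distinct 75-base stretches with it, while Serpinb10 held 6 counts over all libraries.

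Serpinb5, or maspin, was highest later than Serpinb2 and was likewise low by day 14. It had 0 counts on day 0, 0.566, 0.599 and 1.05 CPM on day 1, and 5.86, 9.07 and 7.65 CPM on day 2. The libraries of day 4 had 29.8, 24.3 and 22.4 CPM, those of day 7 had 3.25, 1.10 and 8.44 CPM, and those of day 14 had 0.777, 0.534 and 1.01 CPM. Day 4 lay above all other days, and days 1 and 14 overlapped. Serpinb5 was at least 16.8-fold higher on day 1 than on day 0, at least 581-fold higher on day 4 and at least 17.6-fold higher on day 14. The day 7 bound was at least 97.1-fold, and at least 49.5-fold without replicate C. The log2 fold change of day 14 (0.774 ± 0.238 CPM) against day 4 (25.5 ± 3.85 CPM) was -5.03 ± 0.58. Among 8 urothelial and squamous markers, which mark epithelia known for Serpinb5 and Serpinb2, the summed level was 16.1 to 25.6 CPM on day 1, against 1.51 to 5.44 CPM on day 0, then 10.2 to 18.8 CPM on day 2 and 2.99 to 6.96 CPM on day 4. Krt5, a basal cell keratin, made up 19.6 CPM of the day 1 mean, while the 7 other markers each had a lower mean on day 1 than on day 0, and its part in the Serpinb5 and Serpinb2 values was not tested.

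Serpinb8, whose human counterpart inhibits furin, was highest on day 1 and low from day 4. The values were 19.5, 16.7 and 17.6 CPM on day 0, 31.9, 31.7 and 22.9 CPM on day 1, and 18.6, 11.2 and 16 CPM on day 2. They were 3.45, 2.34 and 2.96 CPM on day 4, 5.56, 4.25 and 4.43 CPM on day 7, and 3.48, 1.82 and 2.09 CPM on day 14. Day 1 lay above day 0, day 2 overlapped day 0, and days 4, 7 and 14 lay below both. The log2 fold change against day 0 (17.9 ± 1.42 CPM) was 0.69 ± 0.23 on day 1 (28.8 ± 5.11 CPM) and -2.86 ± 0.25 on day 14 (2.46 ± 0.893 CPM). On day 2 its sign depended on the scaling, being -0.23 with TMM, 0.28 with library sizes alone and 0.65 with limma on log2(TPM + 1).

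**Figure D1:**
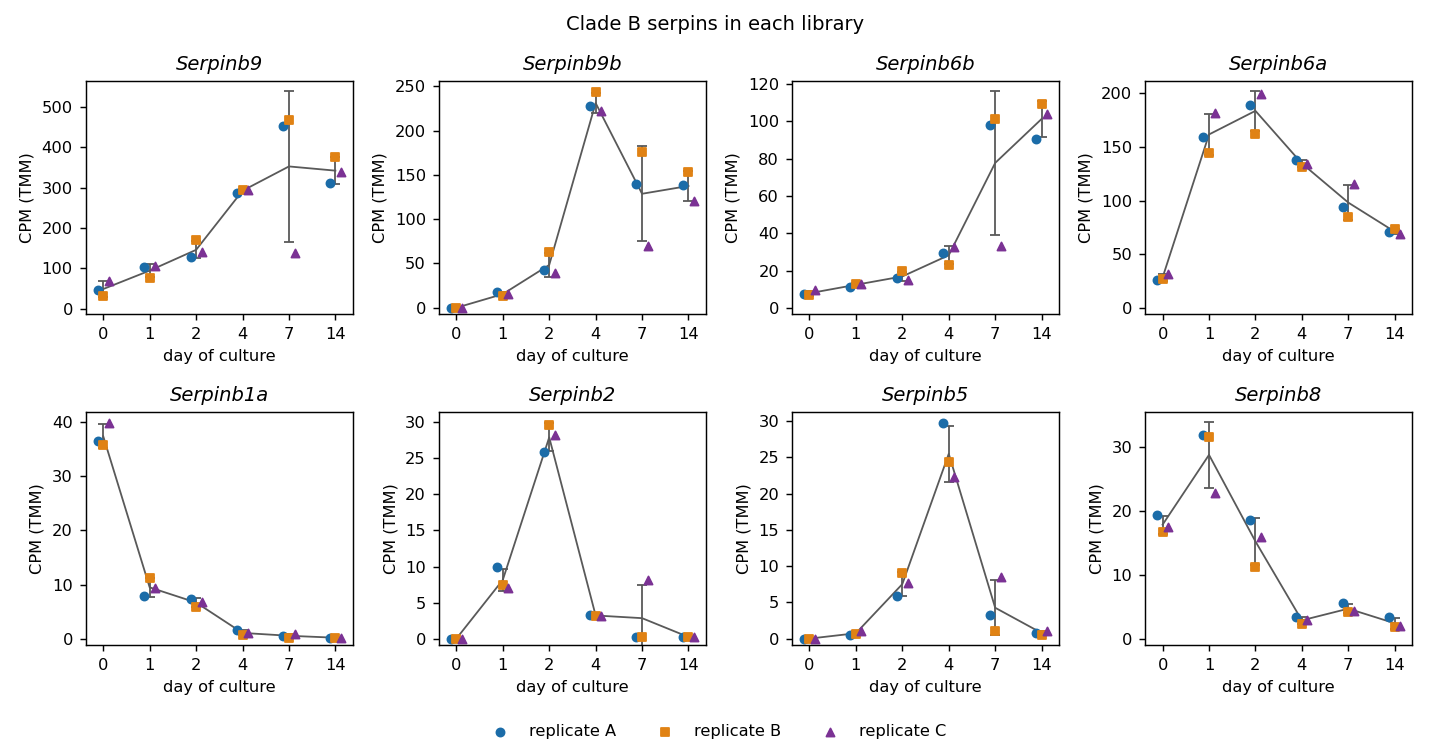
CPM of the 8 clade B serpins (vertical axes, linear, TMM-scaled) by day of culture (horizontal axis, sampled days evenly spaced); points are libraries by replicate, and the line with bars is the mean ± SD of 3 libraries. Serpinb1a is highest on day 0, Serpinb8 on day 1, Serpinb2 and Serpinb6a on day 2, Serpinb5 and Serpinb9b on day 4, and replicate C of day 7 lies apart for Serpinb9, Serpinb9b, Serpinb6b, Serpinb2 and Serpinb5.

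On day 1, 7 members lay above day 0 with no overlap of the libraries and 1, Serpinb1a, lay below. Over all 18754 genes, 34.7% lay above and 39.8% below in the same way, and 33.1% were called higher and 37.1% lower at an adjusted p under 0.05 (edgeR's quasi-likelihood test, Benjamini-Hochberg). On day 4 against day 0, 6 members lay above and 2 below (Serpinb1a and Serpinb8), with 41.8% and 39.5% of all genes (called at adjusted p: 38.1% and 36.8%). On day 14 against day 0 the split was again 6 and 2, with the same 2 below, beside 42.4% and 35.5% of all genes (called: 37.4% and 32.1%). On day 14 against day 4, Serpinb6b and Serpinb9 lay above, 5 lay below and Serpinb8 overlapped, beside 36.2% and 30.7% of all genes (called: 28.6% and 23.3%). The members were chosen with these comparisons known, so nothing is read from their counts. With library sizes alone in place of TMM, 58.3%, 64.9% and 71.9% of all calls on days 1, 4 and 14 against day 0 were higher, in place of 47.2%, 50.9% and 53.8%. All genes had median log2 fold changes of -0.01, 0.08, 0.16 and 0.03 in these 4 comparisons.

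Compared per length, in TPM, the length-scaled unit of the authors' second table, the members together took 71.1 ± 9.60 TPM (day 0), 240 ± 29.0 (day 1), 357 ± 7.23 (day 2), 463 ± 16 (day 4), 445 ± 117 (day 7, or 512 without replicate C) and 457 ± 25.5 (day 14). The order of the members changed with the day. On day 0, Serpinb6a (23.0 TPM) and Serpinb1a (22.0 TPM) led and overlapped, followed without overlap by Serpinb9 (14.4 TPM), Serpinb8 (7.31 TPM) and Serpinb6b (4.33 TPM). On days 1 and 2 Serpinb6a was far ahead, with 157 ± 23.1 and 207 ± 14.0 TPM, and Serpinb9 came second with 36.2 ± 7.66 and 65.2 ± 11.4 TPM. Day 4 had Serpinb6a (160 TPM), Serpinb9 (135 TPM) and Serpinb9b (112 TPM) in that order, with no overlap, before Serpinb6b (25.0 TPM) and Serpinb5 (24.3 TPM), which overlapped. On day 7 the libraries of Serpinb9 (171 TPM) and Serpinb6a (126 TPM) overlapped, as did those of Serpinb6b (70.0 TPM) and Serpinb9b (65.7 TPM). On day 14 Serpinb9 led with 180 ± 15.1 TPM, Serpinb6a (99.3 TPM) and Serpinb6b (98.9 TPM) overlapped, and Serpinb9b had 76.0 ± 7.87 TPM, while the 4 others were each at or below 1.89 TPM.

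**Figure D2:**
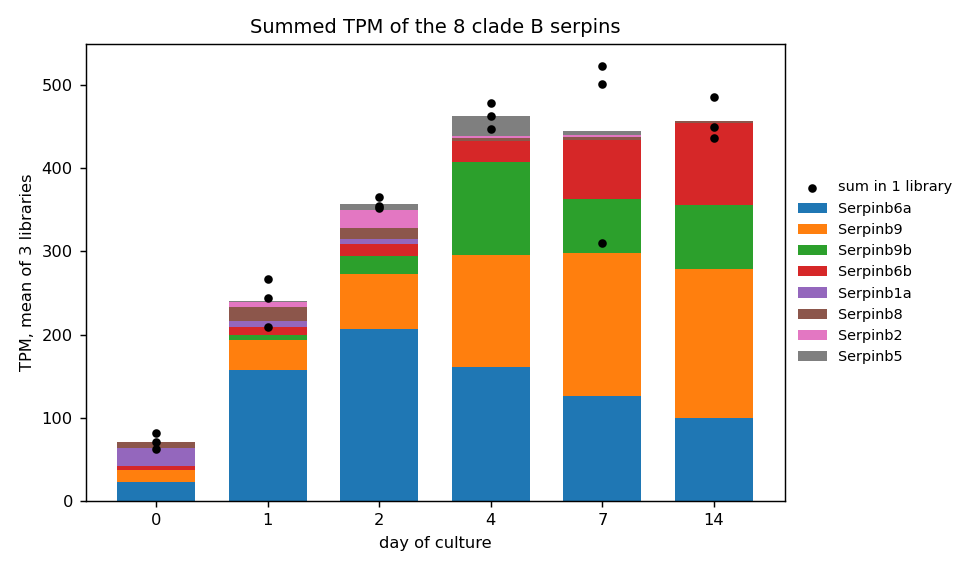
Summed TPM of the 8 members (vertical axis) by day of culture (horizontal axis); coloured blocks are means of 3 libraries and black points the sums in single libraries. The sum is 457 TPM on day 14, against 71.1 TPM on day 0, and the low point of day 7 is replicate C.

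The members differed in how much of their highest level was left at the end. With day 7 replicate C left out, day 14 retained 0.823% of the highest day mean in CPM for Serpinb2, 3.03% for Serpinb5 and 8.54% for Serpinb8. On chromosome 13 it retained 38.7% for Serpinb6a, 59.5% for Serpinb9b, 74.4% for Serpinb9 and 100% for Serpinb6b, whose highest day it was, but 0.442% for Serpinb1a. Leaving out replicate C matters here only for Serpinb9, the member highest on day 7. The day 7 mean of Serpinb9 was 353 CPM with replicate C and 460 CPM without it, against 342 CPM on day 14. Serpinb8 was already at 17.9 CPM on day 0, so it ended below its level at isolation, as Serpinb1a did. In summed TPM the 3 chromosome 1 members had 7.31 ± 1.08 on day 0, 41.8 ± 1.27 on day 2 and 2.72 ± 0.800 on day 14. The 5 chromosome 13 members had 63.8 ± 9.08 on day 0, 315 ± 6.46 on day 2 and 455 ± 26.3 on day 14.

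**Figure D3:**
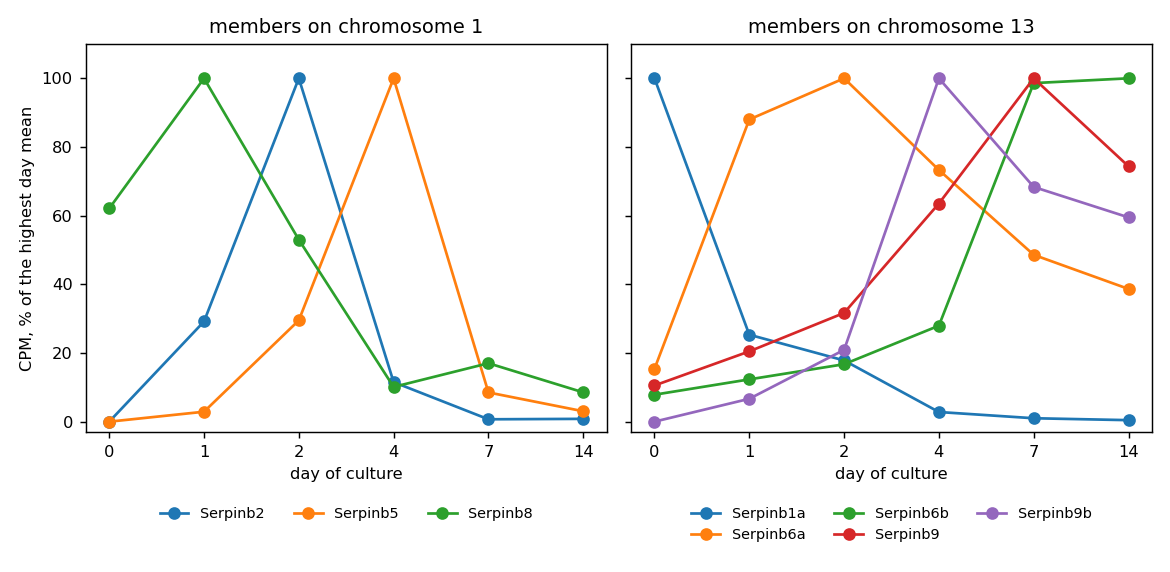
CPM of each member as a percentage of its own highest day mean (vertical axis) by day of culture (horizontal axis), for the members on chromosome 1 (left) and chromosome 13 (right), as means of 3 libraries, or of 2 on day 7, where replicate C is left out. The 3 curves on the left end at 8.54% or less, and those of Serpinb6a, Serpinb9b, Serpinb9 and Serpinb6b on the right end at 38.7% or more.

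Across the 18 libraries, which share their days, the closest courses were those of Serpinb2 and Serpinb6a (Pearson r of log2 CPM of 0.918), Serpinb6b and Serpinb9 (0.902), Serpinb9 and Serpinb9b (0.889) and Serpinb1a and Serpinb8 (0.878). Serpinb1a ran opposite to Serpinb6b (-0.951) and Serpinb9 (-0.920). The course most like each member, outside the serpins and among 13122 genes with at least 5 CPM on their highest day, was that of Elovl2, a fatty acid elongase, for Serpinb1a (r = 0.988), Fam171b for Serpinb2 (0.979) and Ercc6l, a mitotic DNA translocase, for Serpinb5 (0.989). It was Il24, a cytokine, for Serpinb6a (0.990), Mgat4b, a glycosyltransferase, for Serpinb6b (0.989), Numb, a Notch regulator, for Serpinb8 (0.982), Zbtb42 for Serpinb9 (0.978) and Mpzl3 for Serpinb9b (0.995). Il24 had 0 CPM on day 0, 41.6 ± 4.20 CPM on day 2 and 2.69 ± 0.701 CPM on day 14. Mpzl3 had 10.7 ± 1.31 CPM on day 0, 113 ± 3.64 CPM on day 4 and 93.8 ± 6.57 CPM on day 14.

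Of 20 other clade B serpin genes, 13 did not pass the filter, 5 of them with 0 counts in all libraries and none with more than 30 counts in all. The 7 that passed were low, with day means of 1.62 CPM or less. The lowest share of the clade's summed TPM that the 8 members took in any library was 98.16%, on day 1. On day 1 all 7 were called higher than on day 0, beside 33.1% of all genes, but 4 of them had 0 counts on day 0 and could pass the filter only through later days, so nothing is read from that count. Serpinb1b, a copy of the elastase inhibitor, had 1.62 ± 0.355 CPM on day 1, against 0.285 ± 0.0609 CPM on day 0 (log2 fold change 2.51 ± 0.56, edgeR adjusted p = 0.000804), and it was not called on day 14 (0.215 ± 0.119 CPM). Serpinb9c, Serpinb9e, Serpinb9f and Serpinb9g, close relatives of Serpinb9, had 27, 20, 16 and 22 counts on day 1 and 0 on day 0, at least 7.65, 5.77, 4.88 and 6.19-fold. Serpinb9 itself shared 0 of its 3417 distinct 75-base stretches with other genes. Reads of the 4 relatives may be split among them, but their shared stretches were not measured. The median log2 fold change of the 7 was 5.57 as fitted and 2.53 with the 4 genes at 0 counts on day 0 set to their bounds. For all genes it was -0.01, and for the same reason nothing is read from the median of the 7. With limma on log2(TPM + 1), whose filter 2 of them passed, 1 was called higher on day 1.

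On day 4, 2 of the 7 (Serpinb9e and Serpinb9f) were called higher than on day 0, beside 38.1% of all genes. On day 14, 5 were, beside 37.4% of all genes, with Serpinb1b and Serpinb9g not called. None was called lower on either day. The medians were 2.57 on day 4 (0.80 with the bounds), beside 0.08 for all genes, and 5.25 on day 14 (3.12 with the bounds), beside 0.16. The 4 genes at 0 counts on day 0, which include Serpinb9e and Serpinb9f, could pass the filter only through later days. Nothing is therefore read from these counts and medians against day 0. Serpinb1c averaged 0.0342 ± 0.0593 CPM (day 0), 0.158 ± 0.112 CPM (day 4) and 1.29 ± 0.405 CPM (day 14), and day 14 exceeded day 4 by a log2 fold change of 3.02 ± 0.66 (edgeR adjusted p = 0.00135). Serpinb6c had 0.301 ± 0.127 CPM on day 14, against 0.0764 ± 0.0573 CPM on day 0 (edgeR adjusted p = 0.0239). Against day 4, day 14 was called higher for Serpinb1c, Serpinb9c and Serpinb9f, beside 28.6% of all genes. Without day 4 replicate C, or without day 14 replicate C, 1 was called higher. The median log2 fold change of the 7 was 1.32, beside 0.03 for all genes.

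**Figure D4:**
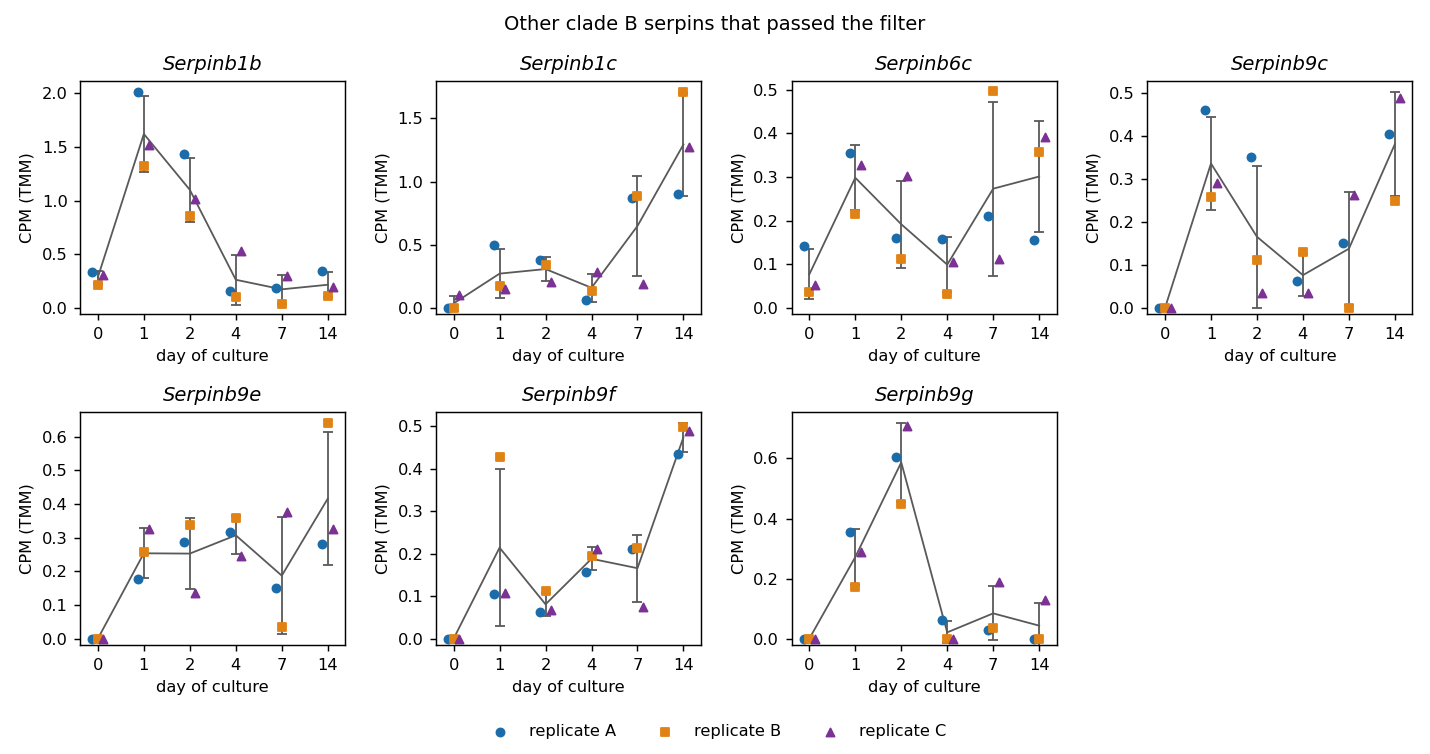
CPM (vertical axes, linear, TMM-scaled) of the 7 other clade B serpins that passed the filter, by day of culture (horizontal axis); points are libraries by replicate, and the line with bars is the mean ± SD of 3 libraries. Day means do not exceed 1.62 CPM, and Serpinb9c, Serpinb9e, Serpinb9f and Serpinb9g are at 0 on day 0.

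The proteases that the granzyme inhibitors are known to bind were scarce in these libraries, apart from granzyme M for a short time. Gzmb, which Serpinb9 inhibits, held 5 counts on day 0 and 1 each on days 1, 2 and 4, and Gzma, which Serpinb6b inhibits, held 7 counts on day 0 and 0 later. Gzmm, which Serpinb9b inhibits, had 5.27 ± 1.93 CPM on day 1, against 0.340 ± 0.0647 CPM on day 0 (log2 fold change 3.95 ± 0.33, edgeR adjusted p = 3.2e-08). Gzmm then averaged 10.3 CPM (day 2), 0.621 CPM (day 4), 0.217 CPM (day 7) and 0.296 CPM (day 14), and was highest 1 sampled day before the day 4 maximum of Serpinb9b. Summed over 8 T and NK cell markers, levels were 2.23 to 3.44 CPM (day 0), 0.0725 to 0.685 CPM (day 1) and 0.0337 to 0.0747 CPM (day 2), with all 8 at 0 counts on days 4 and 7. Macrophage markers (10 genes) summed to 42.6 to 44.7 CPM on day 14, against 33.5 to 77.7 CPM on day 0. The genes behind the sum did not move together. Adgre1, C1qa, C1qb, C1qc, Cx3cr1, Lyz2 and Itgam had lower means on day 14 than on day 0. Csf1r, Cd14 and Ptprc had higher means. C1qb averaged 0.336 CPM on day 14, against 6.87 CPM on day 0, and Cd14 averaged 14.4 CPM, against 3.55 CPM. The sums in day 7 replicates A, B and C were 48.3, 43.5 and 71.4 CPM (the part of macrophages in the Serpinb9 values was not tested). On day 7 the macrophage gene Lyz2 ranged from 4.33 to 46.7 CPM and Ptprc from 2.51 to 8.50 CPM. Replicate C had the highest Lyz2 value, 46.7 of its summed 71.4 CPM, but the lowest values of Ptprc and Csf1r. The higher sum of replicate C therefore rested on Lyz2.

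Elane and Ctsg, neutrophil proteases that the elastase inhibitor family traps, had 0 counts in every library, Prtn3 had at most 34 counts on any day, and 7 neutrophil markers summed to 3.56 CPM or less. Around Serpinb2, both plasminogen activators rose. Plau, urokinase, averaged 8.57 ± 1.81 CPM (day 0), 19.0 ± 2.42 CPM (day 1), 42.6 ± 1.42 CPM (day 4) and 45.7 ± 3.11 CPM (day 14). Each of the 3 later days was called higher than day 0 (edgeR adjusted p = 2.79e-06, 6.52e-10 and 4.61e-10), so Plau was still high after Serpinb2 was low again. Plat, the tissue-type activator, had 391 ± 72.0 CPM on day 1, against 133 ± 36.9 CPM on day 0 (log2 fold change 1.55 ± 0.37, adjusted p = 0.00147), and was not called on day 14 (175 ± 46.4 CPM, adjusted p = 0.354). Furin, which human SERPINB8 inhibits, fell to 237 ± 24.9 CPM on day 1, against 384 ± 16.7 CPM on day 0 (log2 fold change -0.70 ± 0.11, edgeR adjusted p = 2.42e-05), while Serpinb8 was at its highest. In CPM it was also called lower on day 14 (226 ± 17.3 CPM, edgeR adjusted p = 8.59e-06). In TPM the libraries of the 2 days overlapped, with 93.4 ± 8.73 TPM on day 14, against 89.5 ± 5.88 TPM on day 0. Klk8, an epidermal kallikrein, had 5.49 ± 0.932 CPM on day 14, against 0.316 ± 0.0839 CPM on day 0 (log2 fold change 4.13 ± 0.31, edgeR adjusted p = 7.34e-09).

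Of 21 proteases of the kinds on which clade B serpins act, 13 passed the filter. In the comparison of day 1 with day 0, 4 were called higher and 4 lower, beside 33.1% and 37.1% of all genes. The median log2 fold change was 0.19, beside -0.01 for all genes. Day 4 had 5 higher and 5 lower, beside 38.1% and 36.8% of all genes (median 0.88 beside 0.08). Day 14 had 6 and 5, beside 37.4% and 32.1% of all genes (median 0.39 beside 0.16). Those lower on days 4 and 14 included the cysteine cathepsins Ctsl, Ctsh and Ctss. A further cysteine cathepsin, Ctsk, was called higher on day 14, with 1.57 ± 0.138 CPM against 0.803 ± 0.474 CPM on day 0 (log2 fold change 0.98 ± 0.40, edgeR adjusted p = 0.0377), and was not called on day 4 (adjusted p = 0.407). Ctsl averaged 1114 ± 89.6 CPM (day 0), 384 ± 18.2 CPM (day 4) and 491 ± 21.3 CPM (day 14). Klk1, a kidney kallikrein with close relatives among which reads may be split, averaged 2372 ± 296 CPM (day 0) and 742 ± 143 CPM (day 1) and had 0 counts on day 14. For day 14 against day 4, 2 were higher (Klk8 and Ctsl) and 3 lower (Klk1, Plat and Gzmm), beside 28.6% and 23.3% of all genes. The median was 0.10 beside 0.03, and 1 was higher without any one of day 4 replicates A, B and C or day 14 replicates A and C.

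**Figure D5:**
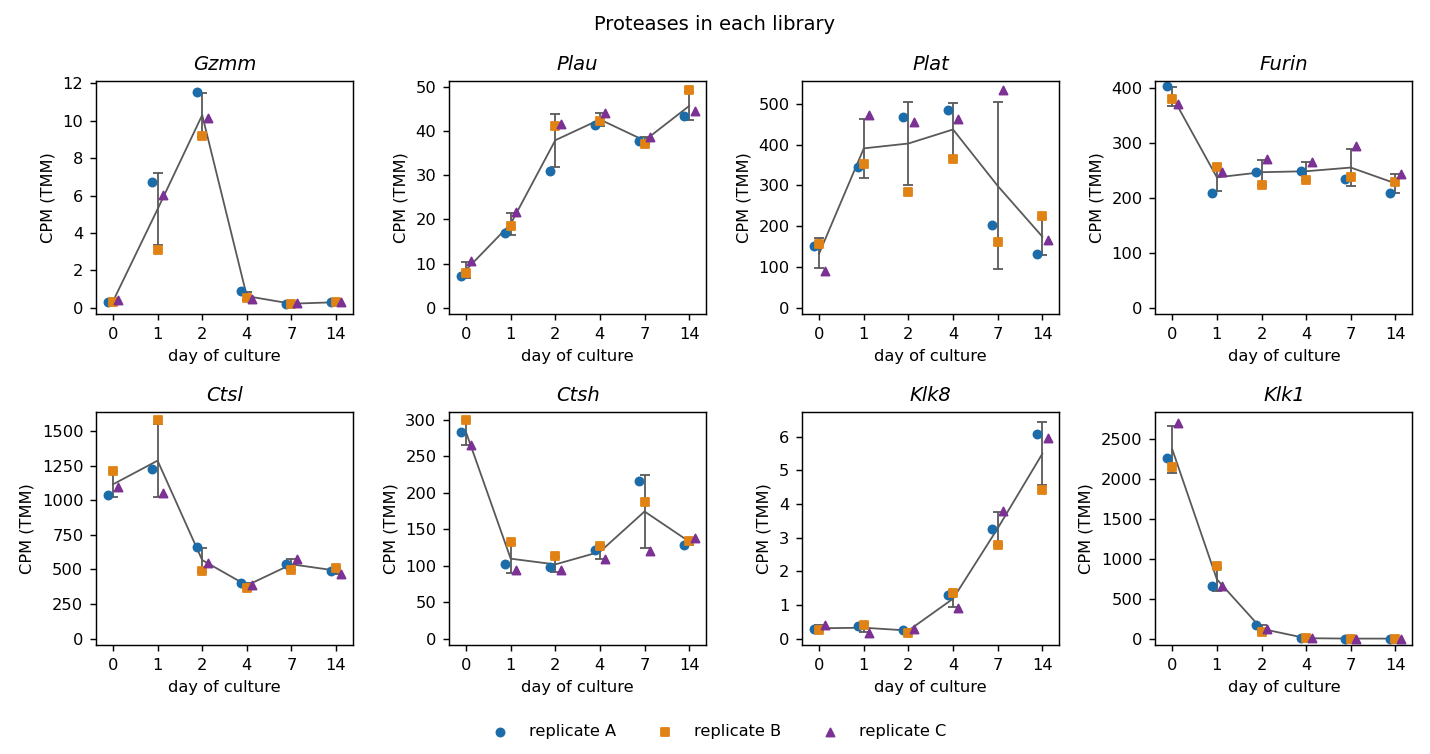
CPM (vertical axes, linear, TMM-scaled) of 8 proteases by day of culture (horizontal axis); points are libraries by replicate, and the line with bars is the mean ± SD of 3 libraries. Gzmm is highest on day 2 at 10.3 CPM, the day means of Plau stay at 37.8 CPM or more from day 2, and Klk1 is at 0 on day 14.

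The serpins outside clade B, which are mostly secreted, were called in both directions in each comparison. Of 36 such genes 19 passed the filter, and on day 1 against day 0, 4 were called higher and 7 lower, beside 33.1% and 37.1% of all genes (median log2 fold change -0.90, beside -0.01 for all genes), or 11 lower without day 1 replicate B and 2 higher and 3 lower with limma on log2(TPM + 1). Serpinh1, the collagen chaperone HSP47, had 362 ± 23.2 CPM on day 14, against 113 ± 8.69 CPM on day 0 (edgeR adjusted p = 9.7e-09). Serpinf2, alpha-2-antiplasmin, fell to 0.0548 ± 0.0487 CPM on day 14, against 110 ± 25.2 CPM on day 0 (log2 fold change -10.85 ± 0.64, edgeR adjusted p = 3.56e-10). Day 4 against day 0 had 3 higher and 9 lower, beside 38.1% and 36.8% of all genes (median -0.80 beside 0.08). Day 14 against day 0 had 6 and 7, beside 37.4% and 32.1% of all genes (median -0.18 beside 0.16). Day 14 against day 4 had 10 higher and 2 lower, beside 28.6% and 23.3% of all genes (median 0.83 beside 0.03). Among those higher was Serpinf1, pigment epithelium-derived factor, with 5.77 ± 0.102 CPM on day 14 and 0.368 ± 0.141 CPM on day 4 (log2 fold change 3.96 ± 0.30, edgeR adjusted p = 1.63e-07).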

How the data were processed

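RNA of 18 libraries (3 per day) was measured by polyA RNA-seq. The authors deposited estimated counts and TPM for each gene; the counts are whole numbers, and depth cannot be read from TPM. RSEM 1.3.3, STAR 2.7.8a, FastQC 0.11.8 and cutadapt 2.3 are the tools, and GRCm38 the build, per the submitters' processing notes. Neither the annotation release nor strand-aware counting is stated in these sources, so overlapping or antisense genes can share reads. Rows of 5 reporter transgenes, with 0 counts, were left out.

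CPM used TMM-scaled library sizes, and a prior count of 2 was added before taking log2. After edgeR's filterByExpr rule, 18754 genes were tested with the quasi-likelihood test in 1 fit of the 6 day means, with calls at an adjusted p (Benjamini-Hochberg) below 0.05. The standard errors are for log2 fold changes and were derived from the F statistic of that fit. They therefore draw on the spread within all 6 days, day 7 with replicate C included. A day with 0 counts was set to a floor of 3 counts over its 3 libraries, and bounds and intervals cover counting error only. Positions and 75-base stretches are from GENCODE vM21. Promoter windows were aligned locally (match 2, mismatch -1, gap opening -4, extension -1).

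The members and lists were chosen with earlier results of these data known. Named were all members, the other clade B serpins, up to 3 called genes per direction with the smallest adjusted p of the 2 other lists in each comparison (not each is printed, and a result is not reported here), and the genes most like a member. Proteases set beside a member for a known pairing (Gzma, Gzmb, Prtn3, Elane, Ctsg), and Ctss, Ctsk, Krt5, further single markers and further values of a named gene, were chosen after values were seen. The labels do not say what a replicate letter shares across days. Same-letter libraries were not treated as pairs, as their deviations had a median correlation of 0.025, although 12 of 18 libraries lay closest to their own letter. As alternatives, the fit was repeated with library sizes alone, DESeq2 size factors, a replicate block, no filter and 1 library left out at a time. The DESeq2 Wald test and limma were run too, limma on log2(TPM + 1) and log2(TPM + 0.1) of genes averaging 0.5 TPM or more and on log2(TPM + 1) of all genes.

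In counts of 15917 genes simulated for day 1 against day 0, the test found 8, 33, 48 and 50 of 50 genes each changed 1.5, 2, 4 and 8-fold, and called 8 unchanged genes. Far fewer genes were changed there than were called in the data, evenly up and down, and the other days were kept at day 0 levels. The counts found therefore describe that setting and not the error rates in these libraries. Versions were DESeq2 1.42.0, edgeR 4.0.16 and limma 3.58.1 in R 4.3.3, with matplotlib 3.10.9 in Python 3.11.15.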

Additional observations from a re-analysis of the deposited data

How the results depend on the processing

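The 33 fitted log2 fold changes of the members were recomputed under 26 alternatives, and 49 of the 858 values moved by over 1.5 times, all of these with limma on TPM (the cause was not tested). The sign changed 4 times, each for Serpinb8 on day 2 against day 0, at 0.28 with library sizes alone and 0.65, 0.71 and 0.65 with limma on log2(TPM + 1), on log2(TPM + 0.1) and without the filter, against -0.23. Scaling by library sizes alone shifted the median of all genes, relative to TMM, by 0.30 (day 1), 0.51 (day 2), 0.49 (day 4), 0.50 (day 7) and 0.56 (day 14) on the log2 scale, so that 58.3% of calls on day 1, 64.9% on day 4 and 71.9% on day 14 were higher, against 47.2%, 50.9% and 53.8%. With limma on log2(TPM + 1) these shares were 61.6%, 70.9% and 78.9%, and 67.7% on day 14 against day 4 in place of 55.1%.

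Over all genes, limma on log2(TPM + 1) and on log2(TPM + 0.1) called 4559 and 4595 lower on day 1 (6949), 3950 and 3957 lower on day 4 (6895), 10791 and 10923 higher (7007) and 2891 and 2840 lower (6026) on day 14; without the filter 11966 were higher on day 14. Lower on day 14 against day 4 were 2885 and, without the filter, 2901 (4374). Of the other clade B serpins, of which 2 passed the TPM filter, these limma settings called 1 and 2 higher on day 1 (7), 0 and 1 on day 4 (2), 1 and 1 on day 14 (5) and 1 and 1 against day 4 (3); without the filter 2, 2 and 1 were lower on days 1, 4 and 14 (0), and library sizes alone gave 4 higher on day 4. Serpins of other clades gave 2 and 2 higher (4) and 3 and 3 lower (7) on day 1, 5 and 5 lower on day 4 (9), 5 and 6 higher (10) and 0 and 1 lower (2, and 1 without the filter) on day 14 against day 4, and 10 higher on day 14 without the filter (6). Proteases gave 3 and 3 lower on day 14 (5); higher on day 14 against day 4 were 1 with DESeq2 size factors or its Wald test and 4 with limma on log2(TPM + 1) (2).

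With 1 library left out, the other clade B serpins higher on day 14 against day 4 numbered 1 to 4, the proteases 1 to 2, and the serpins of other clades lower on day 1 numbered 6 to 11. Deviations of same-letter libraries correlated by -0.172 to 0.423 (median 0.025, 8 of 45 pairs over 0.1), and the replicate block moved no count by over 1.5 times, with 6183 higher and 6950 lower on day 1. Of the libraries, 12 of 18 lay closest to their own letter, and what same-letter libraries share was not tested. Members at a few counts, such as Serpinb1a and Serpinb2 on day 14, are limited by depth.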
